A study of Drosophila melanogaster with 6 samples.

Results

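The proteasome subunit genes of *Drosophila melanogaster* were examined in wing discs at the early stage of regeneration. They were chosen by symbol alone: every gene whose FlyBase symbol starts with Prosalpha, Prosbeta, Rpn or Rpt followed by a digit was taken, which gave 48 of the 16455 genes quantified. Of these, 32 are somatic subunit genes and 16 carry a symbol ending in T or R, with or without a further digit, the ending given to the paralogs (duplicated copies, most of them known from the testis). The 32 somatic genes comprise 14 of the core particle (7 of the alpha ring and 7 of the beta ring) and 18 of the regulatory particle (10 of the base and 8 of the lid).

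The 26S proteasome degrades proteins that carry ubiquitin chains. Its core particle is a barrel of stacked rings, in which the alpha rings form the gate and the beta rings hold the proteolytic sites, and its regulatory particle binds the substrate, removes the ubiquitin, unfolds the chain with a ring of ATPases and feeds it into the barrel. In flies the proapoptotic protein Reaper promotes ubiquitin-dependent degradation of the caspase inhibitor Diap1, and the transcription factor CncC, made from *cnc*, activates proteasome subunit genes together when proteasome activity falls.

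The study deleted the lncRNA gene *CR40469* and asked how the transcriptome of regenerating discs differs without it. Wing discs of larvae in the third instar were collected after 16 h of *rpr* expression at 29 °C, which followed culture at 17 °C, and 50 discs were pooled for each library. By their labels, the 3 CR40469-KO libraries are from discs with the deletion, in which an mCherry cassette replaces the locus, together with salE/Pv-LHG:tub-Gal80TS and lexO-rpr. The 3 libraries labelled control are given as salE/Pv-LHG:tub-Gal80TS and lexO-rpr without the deletion. Both labels therefore share the *rpr* transgene, the temperature shift and the driver, an enhancer of *spalt* active in the centre of the wing pouch, so that dying and surviving cells were sampled together and no undamaged disc is part of the comparison. In such bulk samples, fewer cells of a type and less RNA per cell cannot be told apart.

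Levels are given in TPM, relative transcript abundances that are scaled by transcript length and to 1 total in every library. The scaling is meant to let levels be compared between genes, but values still moved with transcript length in several libraries, as given below. The deposited values hold no sequencing depth. The paper lists mapped reads in its supplement, which were not used here, and the counting error behind a value was not estimated. The deleted gene went against the labels: *CR40469* had 536, 389 and 294 TPM in the libraries labelled CR40469-KO and 99.6, 46.4 and 82.5 TPM in those labelled control, and every direction below is stated by label. *CR34335*, a lncRNA gene of closely similar sequence by the alignment shown in the study, had 1938, 1929 and 1902 TPM in the libraries labelled CR40469-KO and 3522, 2443 and 3202 TPM in those labelled control, the opposite order without overlap. Whether libraries were exchanged or reads of a similar transcript were assigned to *CR40469* cannot be told from TPM. An exchange would turn round every direction given here. The *rpr* transcript was at 144.06, 189.81 and 164.11 TPM under CR40469-KO and at 132.26, 122.67 and 143.52 TPM under control, without overlap. Its log2 fold change was 0.31 (limma adjusted p = 0.818), and whether the damage was equal between the labels was not tested. The wing disc markers *vg*, *nub*, *rn*, *ap*, *sd* and *salm* were at or above 1 TPM in every library, 6 of 6, with a summed level of 409 to 575 TPM in the libraries labelled CR40469-KO and 338 to 545 TPM in those labelled control. All 8 testis markers were under 1 TPM in every library. The summed level of the 6 fat body markers was 6.6 to 10.9 TPM in the libraries labelled CR40469-KO and 10.3 to 17.3 TPM in those labelled control, of which *Tsf1* alone made up 3.74 to 10.1 TPM. Of the other fat body markers, *Fbp1*, *Fbp2*, *Lsp1alpha* and *Lsp2* were lower in all 3 libraries labelled CR40469-KO than in all 3 labelled control. The 5 fat body markers tested had a median log2 fold change of -0.74, all 5 negative, and 0 were called (lowest limma adjusted p = 0.0747, for *Fbp2*, with -1.04). The summed level of the 5 haemocyte markers was 4.16 to 8.25 TPM and 2.01 to 6.93 TPM in the same order of labels. Muscle markers summed to 15.9 to 19.7 TPM under CR40469-KO and 13.1 to 30.1 TPM under control, with *Act88F* at 0 in every library, and salivary gland markers to 0.5 to 4.46 TPM and 0.68 to 3.27 TPM. The part of these other tissues in the values below was not tested. Between 7683 and 7779 genes reached 1 TPM in a library.

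No somatic proteasome subunit gene passed the test between the labels. All 32 reached the minimum of 1 TPM in some library that testing required. By limma, p-values were adjusted after Benjamini and Hochberg over all tested genes. A gene was called at an adjusted p under 0.05 together with a fold change above 1.7 in either direction. Of the members, 0 of 32 were called, against 0.224 percent of the 8051 genes tested. At that share, 0 calls among 32 genes says little about them. An unadjusted p under 0.05 was reached by 0 of 32 members, against 4.82 percent of the genes tested, and the lowest was 0.203. The log2 fold changes of log2(TPM + 1), CR40469-KO over control, lay between -0.13 for *Prosbeta4* and 0.22 for *Rpn2*. The 95% interval of the difference stayed within a fold change of 1.7 in either direction for 31 of 32 members, against 78.4 percent of the genes tested, and it reached beyond only for *Rpn1*, with -0.36 to 0.77. The 2 sets differ in level, with a median of the mean TPM of 249 over the members and 27.9 over the genes tested. For the cytoplasmic ribosomal protein genes, with a median of 4393 TPM, the interval stayed within that limit for 86 of 87 tested. For 0 of 32 members did all 3 libraries labelled CR40469-KO lie above all 3 labelled control, and for 0 of 32 below them, while all libraries labelled CR40469-KO lay above all those labelled control for 7.90 percent of the genes tested and below them for 2.56 percent.

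**Figure D1:**
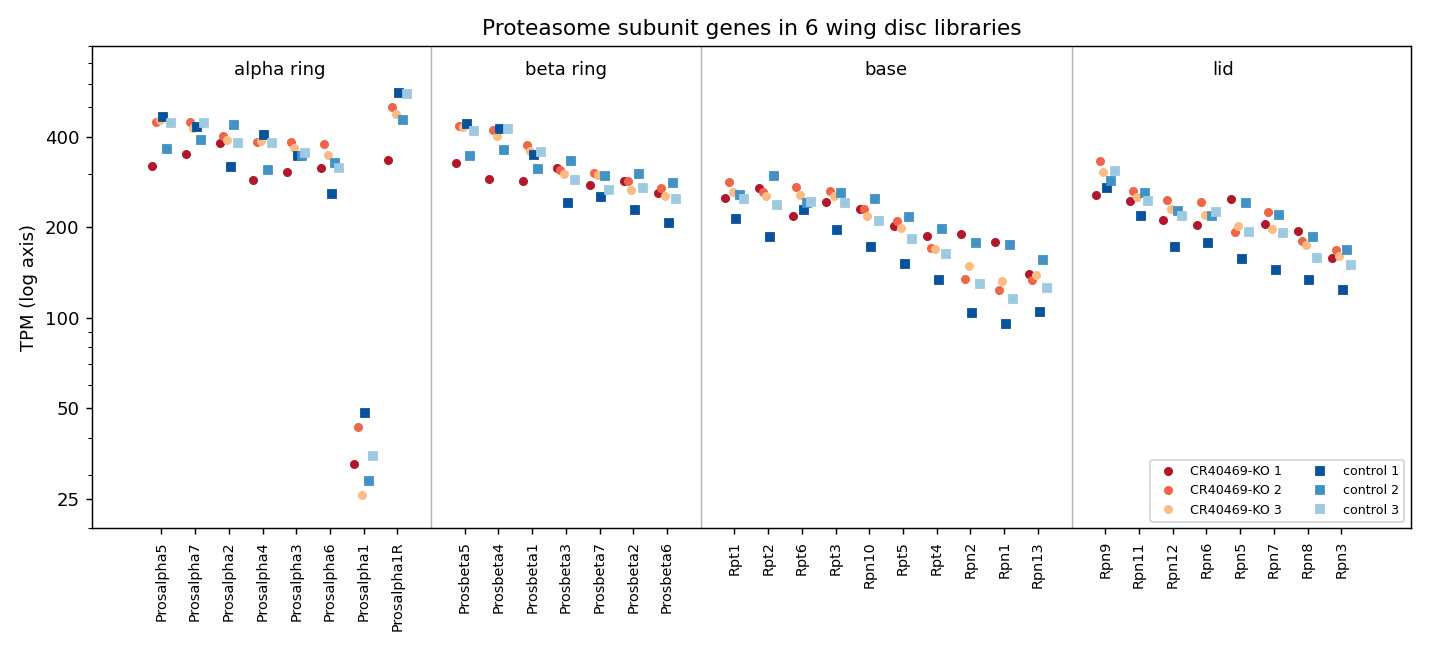
TPM (log axis) of the 32 somatic proteasome subunit genes and *Prosalpha1R* in each of the 6 libraries, grouped by ring or subcomplex and ordered by mean level within it. Circles are the 3 libraries labelled CR40469-KO and squares the 3 labelled control. Core particle genes other than *Prosalpha1* lie mostly above those of the base and lid, *Prosalpha1* lies between 25.8 and 48.4 TPM, and control replicate 1 is the lowest for 16 of the 18 base and lid genes.

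All subunit genes except *Prosalpha1* were among the highly expressed genes of the disc. Mean TPM over the 6 libraries lay at or above the 88.0th percentile of the tested genes for the other 31 members and at the 58.4th percentile for *Prosalpha1*. The 32 genes are spread over 5 chromosome arms, of which 2R holds the most, 10, then 3R with 9, 3L with 5, and 2L and X with 4 each. The positions given here are those of the Ensembl annotation of dm6 and span the whole gene. For 13 of the 32 somatic genes, an exon shares sequence with an exon of a neighbour on the opposite strand, and the sources used here do not state whether the counting used strand. The longest such overlap with a neighbour above 50 TPM was 116 bp, between *Rpt2* and *CG31142*.

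The alpha ring comprises 7 subunits that open and close the entry to the barrel. *Prosalpha5* (FBgn0016697, chromosome 2R, 17412767 to 17413769, plus strand) had the highest mean of all 32 genes, with 319, 448 and 454 TPM in the libraries labelled CR40469-KO and 464, 364 and 444 TPM in those labelled control. The labels overlapped, with the low values in CR40469-KO replicate 1 and control replicate 2. Its log2 fold change was -0.07 ± 0.19 (SE, limma adjusted p = 0.888, n = 3 per label).

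*Prosalpha6* (FBgn0250843, chromosome 2L, 10221351 to 10222546, plus strand) had the lowest p of the 32. It was at 314, 378 and 347 TPM in the libraries labelled CR40469-KO and at 257, 326 and 314 TPM in those labelled control. CR40469-KO replicate 1 fell among the control libraries, and control replicate 1 was the lowest of all. The means were 346 ± 31.9 and 299 ± 36.7 TPM (SD, n = 3 each), and the log2 fold change of 0.21 ± 0.15 (SE) did not pass (limma adjusted p = 0.818).

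The other alpha ring genes did not pass the test either. *Prosalpha2* averaged 390.4 ± 11.1 TPM in the libraries labelled CR40469-KO and 377 ± 59.4 TPM in those labelled control (SD, n = 3 each). *Prosalpha3*, whose yeast counterpart holds the gate shut, averaged 351 ± 40.4 and 347 ± 4.87 TPM under the same labels. For *Prosalpha4* and *Prosalpha7*, the log2 fold changes were both -0.05, with 95% intervals of -0.46 to 0.36 and -0.40 to 0.30.

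*Prosalpha1* (FBgn0263121, chromosome 2R, 7827303 to 7828678, minus strand) stood apart in level. It had 32.7, 43.4 and 25.8 TPM in the libraries labelled CR40469-KO and 48.4, 28.7 and 34.6 TPM in those labelled control, against 257 to 464 TPM for the other 6 alpha ring genes. Its range covered both labels, and its log2 fold change was -0.13 ± 0.25 (SE, limma adjusted p = 0.851). The largest share of the TPM listed for this subunit stood at the paralog *Prosalpha1R* (FBgn0050382, chromosome 2R, 7830413 to 7831771, minus strand), which lies 1734 bp from *Prosalpha1* on the same strand. *Prosalpha1R* had 335, 503 and 474 TPM in the libraries labelled CR40469-KO and 558, 455 and 554 TPM in those labelled control.

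*Prosalpha1* made up 5.17 to 8.89 percent of the sum of the pair over the 6 libraries. In these discs *Prosalpha1R* therefore had the level of a somatic alpha ring gene, which goes against grouping it with the testis paralogs by its symbol. How the quantification divided reads that fit both copies cannot be followed in TPM, so the division between them is uncertain and their sum is given as well. The sum was 471 ± 92.5 TPM under CR40469-KO and 560 ± 66.2 TPM under control (SD, n = 3 each). Its log2 fold change of -0.26 (95% interval -0.69 to 0.17) did not pass (limma adjusted p = 0.818), and the libraries of the labels overlapped, with control replicate 2 at 484 TPM and CR40469-KO replicate 2 at 546 TPM.

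The beta ring holds the 3 proteolytic subunits. *Prosbeta1* (FBgn0010590, chromosome 2R, 16013805 to 16014787, minus strand), which cleaves after acidic residues, was at 284, 374 and 357 TPM in the libraries labelled CR40469-KO and at 346, 312 and 355 TPM in those labelled control. *Prosbeta2* (FBgn0023174, chromosome 3L, 14999951 to 15001319, plus strand), which cleaves after basic residues, was at 285, 285 and 265 TPM under CR40469-KO and at 228, 301 and 269.6 TPM under control. *Prosbeta5* (FBgn0029134, chromosome 2R, 10819978 to 10821178, plus strand), which cleaves after hydrophobic residues and had the highest mean of the beta ring, was at 326, 435 and 431 TPM under CR40469-KO and at 440.3, 344 and 418 TPM under control. For all 3 genes the labels overlapped, and the lowest library was CR40469-KO replicate 1 for *Prosbeta1* and *Prosbeta5* and control replicate 1 for *Prosbeta2*.

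The log2 fold changes of the proteolytic subunits were small against their errors. They were -0.01 ± 0.16 for *Prosbeta1*, 0.07 ± 0.15 for *Prosbeta2* and -0.02 ± 0.17 for *Prosbeta5* (SE, limma adjusted p = 0.989, 0.860 and 0.970, n = 3 per label). The widest of the 3 intervals, that of *Prosbeta5*, ran from -0.42 to 0.38.

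The other 4 beta ring subunits complete the ring without a proteolytic site of their own. *Prosbeta6* (FBgn0002284, chromosome 3L, 16609400 to 16610418, minus strand), in which a dominant temperature-sensitive allele is known, had the lowest mean of the ring, at 259, 270.5 and 253 TPM in the libraries labelled CR40469-KO and 206, 279 and 249 TPM in those labelled control. All 3 CR40469-KO values lay inside the control range, and the log2 fold change was 0.10 ± 0.15 (SE, limma adjusted p = 0.827). *Prosbeta4* had the most negative log2 fold change of the 32 genes, -0.13, with 289, 422 and 401 TPM under CR40469-KO and 422, 362 and 424 TPM under control. Only CR40469-KO replicate 1 was below the control range there. *Prosbeta3* averaged 309 ± 7.05 and 287 ± 45.5 TPM, and *Prosbeta7* 293 ± 14.4 and 272 ± 22.4 TPM (CR40469-KO and control, SD, n = 3 each).

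The base of the regulatory particle unfolds substrates with a ring of the ATPases Rpt1 to Rpt6. *Rpt1* (FBgn0028687, chromosome 2R, 7652440 to 7653954, minus strand) had the highest mean of the base, with 249.6, 282 and 262 TPM in the libraries labelled CR40469-KO and 213, 255 and 247 TPM in those labelled control. CR40469-KO replicate 1 lay below control replicate 2, so the labels overlapped, and the log2 fold change was 0.15 ± 0.14 (SE, limma adjusted p = 0.818). The 6 ATPase genes were expressed at mean levels of 170.1 TPM (*Rpt4*) to 252 TPM (*Rpt1*), and their log2 fold changes lay between 0.06 (*Rpt6*) and 0.17 (*Rpt5*). The control label had the wider spread for 5 of the 6, for example 262 ± 8.3 TPM under CR40469-KO and 239 ± 54.9 TPM under control for *Rpt2* (SD, n = 3 each), and the narrower one for *Rpt6*, with 249 ± 27.1 and 238 ± 7.68 TPM.

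The non-ATPase subunits of the base are the scaffolds Rpn1 and Rpn2 and the ubiquitin receptors Rpn10 and Rpn13, with Rpn1 also a receptor in yeast. *Rpn2* (FBgn0028692, chromosome 3R, 29153524 to 29157255, plus strand) had the largest fold change of the 32 genes. It was at 189, 134 and 149 TPM in the libraries labelled CR40469-KO and at 104, 178 and 129.8 TPM in those labelled control. Each label had 1 library well above its other 2, CR40469-KO replicate 1 and control replicate 2, so that the log2 fold change of 0.22 came with a 95% interval of -0.30 to 0.74 (limma adjusted p = 0.818). *Rpn1*, with 179, 124 and 132 TPM under CR40469-KO and 95.3, 174 and 116 TPM under control, had the same order of libraries within each label.

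*Rpn13* (FBgn0033886, chromosome 2R, 13958545 to 13960404, minus strand) had the lowest mean of the base. It was at 139.5, 134 and 139 TPM in the libraries labelled CR40469-KO, inside the 104, 156 and 126 TPM of those labelled control, and the log2 fold change was 0.11 ± 0.17 (SE, limma adjusted p = 0.828). *Rpn10* averaged 226 ± 6.79 TPM under CR40469-KO and 210.2 ± 38.8 TPM under control (SD, n = 3 each).

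The lid removes ubiquitin from substrates through the metalloprotease Rpn11, which pairs with the related subunit Rpn8. *Rpn8* (FBgn0002787, chromosome 2R, 24400028 to 24404527, plus strand) was at 195, 179.8 and 174 TPM in the libraries labelled CR40469-KO and at 133, 186 and 158 TPM in those labelled control. Control replicate 2 lay inside the CR40469-KO range, and the log2 fold change was 0.21 ± 0.16 (SE, limma adjusted p = 0.818). *Rpn11* itself was the most even of the 32 genes, with a coefficient of variation of 6.74 percent over the 6 libraries, 253 TPM on average under CR40469-KO and 240.2 TPM under control.

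The remaining lid subunits form its scaffold. *Rpn7* (FBgn0028688, chromosome 3R, 22460662 to 22462054, minus strand) was at 205, 224 and 197 TPM in the libraries labelled CR40469-KO and at 144, 219 and 191 TPM in those labelled control, which overlapped (log2 fold change 0.20 ± 0.18, SE, limma adjusted p = 0.818). Among the 8 lid genes taken by symbol, *Rpn9* (FBgn0028691, chromosome 3R, 23731375 to 23733462, minus strand) had the highest mean. *Rpn3* (FBgn0261396, chromosome 2L, 19051790 to 19053681, plus strand) had the lowest. For *Rpn9* the values were 257, 331 and 305 TPM under CR40469-KO and 270.5, 284 and 306 TPM under control, with a log2 fold change of 0.05 ± 0.15 (SE, limma adjusted p = 0.907). For *Rpn3* they were 158, 168 and 160.5 TPM under CR40469-KO and 124, 167 and 149 TPM under control, with 0.15 ± 0.15 (SE, limma adjusted p = 0.818). In both genes the labels overlapped. *Rpn5*, *Rpn6*, which clamps the lid to the core, and *Rpn12* had log2 fold changes of 0.13, 0.11 and 0.16.

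**Figure D2:**
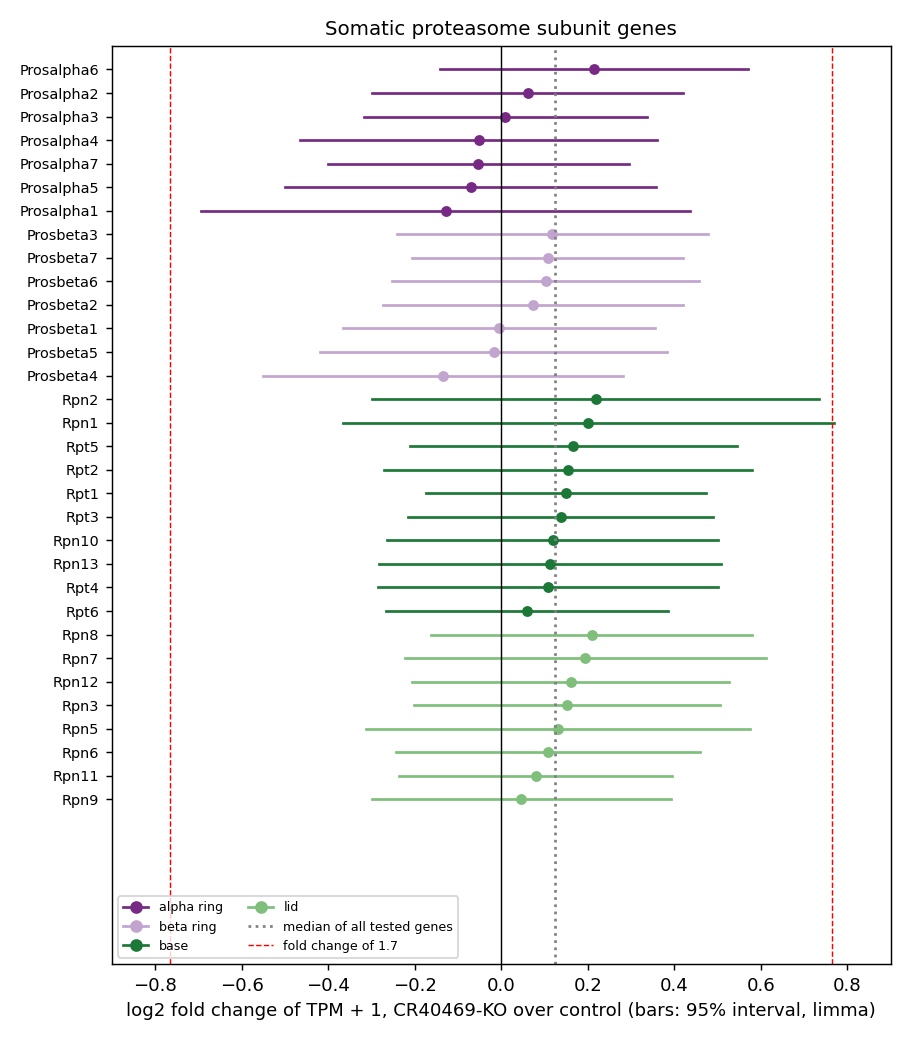
Log2 fold change of TPM + 1 (CR40469-KO over control) of the 32 somatic subunit genes with the 95% interval from limma, by ring or subcomplex. The dotted line is the median of all 8051 tested genes, 0.13, and the dashed lines mark a fold change of 1.7. All 32 intervals include 0, and only that of *Rpn1* crosses a dashed line.

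Core and regulatory particle were then set side by side. The median log2 fold change was 0.0022 over the 14 core genes, with 7 positive and 7 negative. It was 0.14 over the 18 regulatory genes, with 18 positive. Over all 8051 genes tested the median was 0.13, with 6027 positive and 2024 negative, so most genes were positive. The direction of the regulatory genes moved with that shift of all genes: median-ratio scaling, which gives the typical gene the same level in each library, by construction takes nearly the same amount from every log2 fold change. After it the median of all tested genes was 0.00028, 10 regulatory genes were positive and 8 negative (median 0.01), and 1 core gene was positive and 13 negative (median -0.13). The size of both medians moved when single libraries were left out, while the regulatory median remained positive in all 6 such fits. Without control replicate 1 the regulatory median was 0.02, with 13 genes positive and 5 negative, without control replicate 2 it was 0.25, and without CR40469-KO replicate 1 the core median was 0.10.

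By median TPM, core particle genes were above regulatory particle genes in each library, though TPM also moved with transcript length, as given below. The median of the mean TPM was 344 over the core genes and 209.6 over the regulatory genes, and 13 of the 14 core genes, all but *Prosalpha1*, were at 253 TPM or more on average, a level which 1 of the 18 regulatory genes, *Rpn9*, reached. The ratio of the median core TPM to the median regulatory TPM was 1.43, 1.68 and 1.72 in the libraries labelled CR40469-KO and 2.02, 1.47 and 1.76 in those labelled control. These averaged 1.61 ± 0.16 and 1.75 ± 0.27 (SD, n = 3 each), a difference smaller than the spread of the libraries within a label, and the ranges overlapped. A ratio of TPM compares transcripts and not the subunits in assembled particles.

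**Figure D3:**
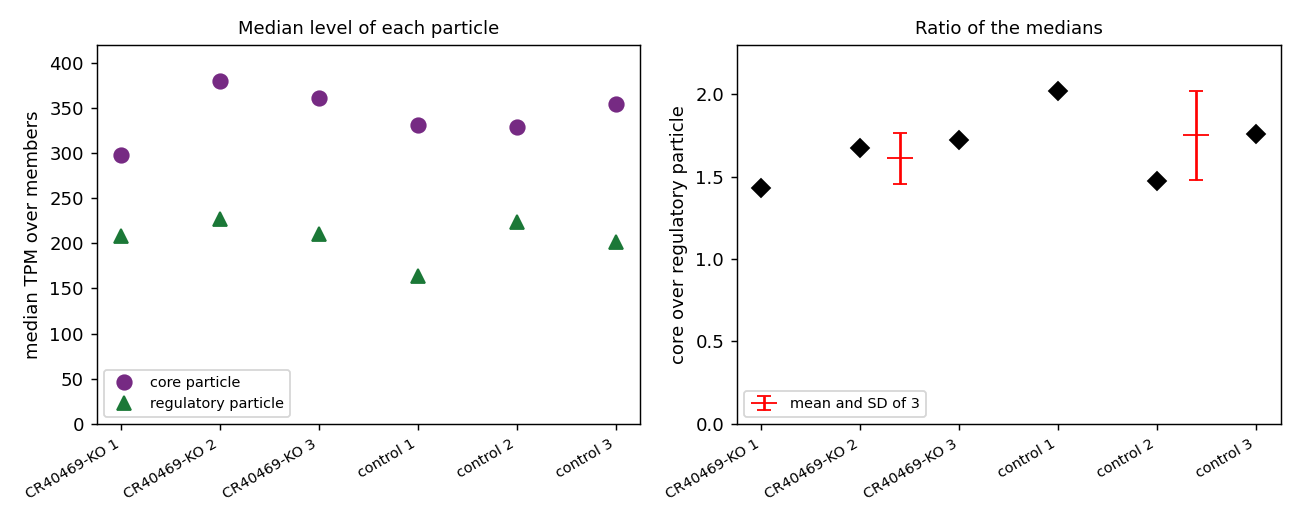
Left, median TPM of the 14 core and 18 regulatory particle genes in each library. Right, the ratio of these medians (diamonds), with the mean and SD of the 3 libraries of each label beside them in red. The ratio runs from 1.43 to 1.72 under CR40469-KO and from 1.47 to 2.02 under control, and control replicate 1 is highest.

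The libraries differed from each other in a way that the labels did not follow. CR40469-KO replicate 1 was the lowest of the 6 libraries for 7 of the 14 core genes and control replicate 1 for 6, while for the regulatory genes control replicate 1 was the lowest for 16 of 18 and CR40469-KO replicate 1 for 2, *Rpt6* and *Rpn9*. Within the core, *Prosalpha3*, *Prosalpha4*, *Prosalpha5*, *Prosalpha7*, *Prosbeta1*, *Prosbeta4* and *Prosbeta5* were the genes lowest in CR40469-KO replicate 1, and *Prosalpha2*, *Prosalpha6*, *Prosbeta2*, *Prosbeta3*, *Prosbeta6* and *Prosbeta7* those lowest in control replicate 1, groups read from the values themselves. In median deviation from each gene's mean of log2(TPM + 1), the core genes stood at -0.14, 0.12 and 0.07 in the libraries labelled CR40469-KO and at 0.01, -0.05 and 0.01 in those labelled control. The regulatory genes stood at 0.07, 0.11 and 0.04 under CR40469-KO and at -0.33, 0.15 and -0.04 under control.

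The deviations moved with transcript length. The canonical transcripts of the core genes are 815 to 1215 nt long and those of the regulatory genes 995 to 3325 nt. Over the 32 genes, which share the same libraries, the Spearman correlation of deviation with length was 0.61, -0.27 and -0.20 in the libraries labelled CR40469-KO and -0.65, 0.56 and -0.63 in those labelled control. The same was measured over the 8013 tested genes with a known length, with 0.62, -0.30 and -0.09 under CR40469-KO and -0.60, 0.56 and -0.68 under control. Long transcripts were thus relatively high in CR40469-KO replicate 1 and control replicate 2 and low in control replicates 1 and 3, in the subunit genes as in all genes.

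*Rpn1* and *Rpn2*, with 3041 and 3325 nt the longest of the 32, showed this most plainly, and the part of length in any difference between core and regulatory particle was not tested. Among regulatory genes under 2000 nt alone, 16 of 18, the median log2 fold change was 0.13. This limit leaves out only *Rpn1* and *Rpn2*, and most of the 16 remain longer than any core gene. Mean level and length were also related, with a Spearman correlation of -0.66 over the 32 genes and -0.77 over the 31 other than *Prosalpha1*, but of -0.22 within the 13 core genes other than *Prosalpha1* and -0.34 within the 18 regulatory genes, beside -0.11 over all tested genes.

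**Figure D4:**
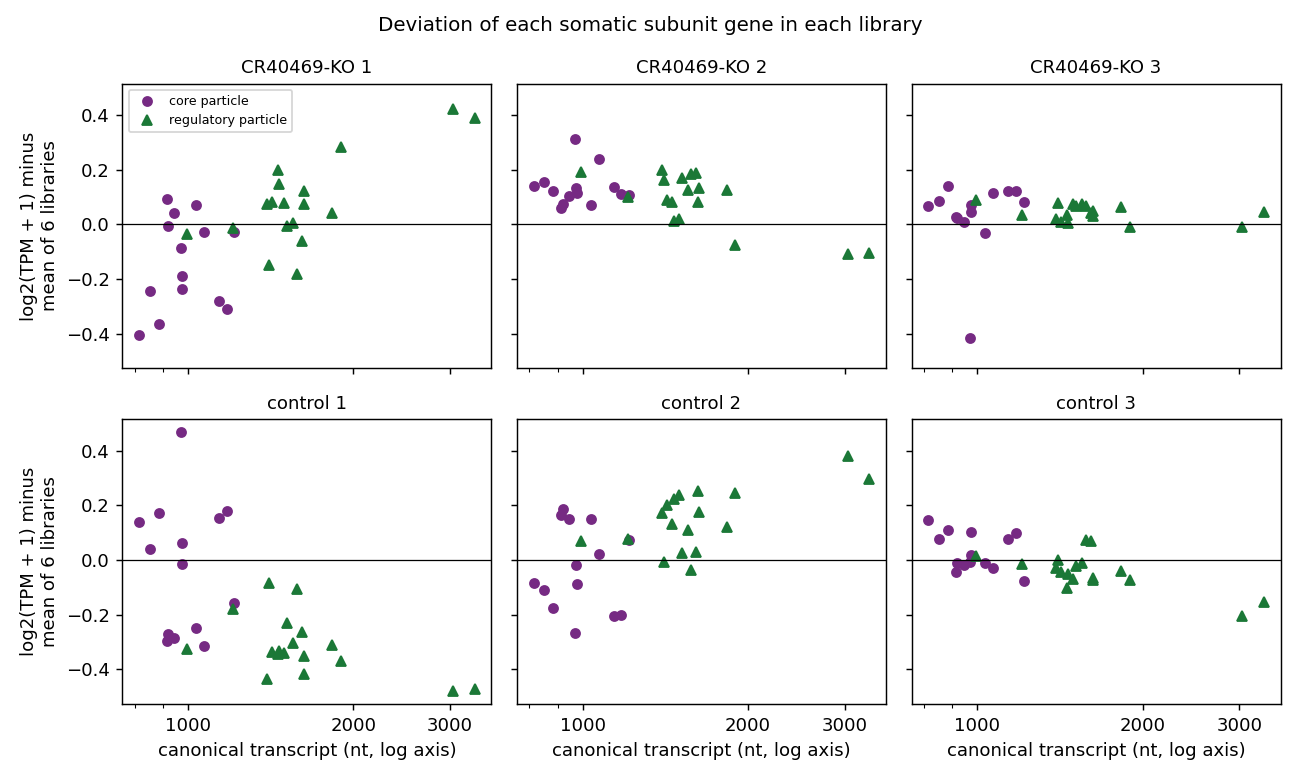
Deviation of each somatic subunit gene from its own mean over the 6 libraries, in log2(TPM + 1), against the length of its canonical transcript (nt, log axis), with 1 panel per library, CR40469-KO above and control below. Points are genes, circles for the core and triangles for the regulatory particle. The longest genes lie high in CR40469-KO replicate 1 and control replicate 2 and low in control replicates 1 and 3, with Spearman correlations of 0.61, 0.56, -0.65 and -0.63.

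Leaving out the libraries in which long transcripts were high changed the counts of ordered genes. Without control replicate 2, all 3 libraries labelled CR40469-KO lay above the remaining control libraries for 17 of 32 members, 13 of them regulatory, and below for 1, beside 37.5 percent and 12.5 percent of the tested genes. Without CR40469-KO replicate 1, its remaining libraries lay above all controls for 7 of 32, beside 13.0 percent, and below for 0, beside 7.07 percent. Without both libraries the median log2 fold change was 0.08 over the core genes, 0.25 over the regulatory genes and 0.10 over all tested genes. In no leave-out fit did any member reach an unadjusted p under 0.05, and the lowest was 0.0598, without control replicate 2.

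The paralogs other than *Prosalpha1R* were near or at the bottom of the scale. *Rpt3R* was the only other one above 1 TPM, with 3.96, 6.02 and 5.75 TPM in the libraries labelled CR40469-KO and 5.88, 5.4 and 6.53 TPM in those labelled control, which overlapped (log2 fold change -0.17 ± 0.17, SE, limma adjusted p = 0.818). It amounted to 2.25 percent of the sum with *Rpt3*. The other 14 were under 1 TPM in every library and were not tested, while their 10 somatic counterparts were at 104 TPM or more in each library.

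Of these 14, 10 were listed at 0 in all 6 libraries: *Prosalpha3T*, *Prosalpha4T1*, *Prosalpha4T2*, *Prosalpha6T*, *Prosbeta4R1*, *Prosbeta4R2*, *Prosbeta5R1*, *Prosbeta5R2*, *Rpn12R* and *Rpt4R*. *Prosbeta2R1* and *Rpn13R* were above 0 in 1 library each, at 0.04 and 0.03 TPM, and *Prosbeta2R2* was at 0.04 to 0.08 TPM. *Rpt6R* was at 0.15, 0.29 and 0.27 TPM in the libraries labelled CR40469-KO and at 0.10, 0.14 and 0.12 TPM in those labelled control, without overlap, but at levels at which the deposited 2 decimals are coarse.

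Genes that work with the proteasome were read from short lists. Since 0.224 percent of all tested genes were called, 0 calls in a list of their size says little about it, and the values are given for themselves. Of 9 associated factors, all tested, 0 were called, with a median log2 fold change of 0.03. *Pomp*, the assembly chaperone of the core, averaged 180 ± 18.2 TPM in the libraries labelled CR40469-KO and 181 ± 12.2 TPM in those labelled control (SD, n = 3 each). *PI31*, a proteasome regulator, averaged 94 ± 4.75 and 93.9 ± 1.05 TPM, and *REG*, the activator that can cap the core in place of the regulatory particle, 336 ± 15.4 and 334 ± 12.6 TPM, under the same labels. *Sem1* is itself a lid subunit, but the symbol rule does not take it, so it is not among the regulatory genes counted above. It had the highest level of the list, with 649 ± 101 and 632 ± 46.5 TPM under the same labels. The highest log2 fold change of the list was 0.20, for the shuttle factor *Ubqn*.

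The CncC pathway genes, all 4 tested, were not called either. *cnc* itself was at 43.6, 28.1 and 28.2 TPM in the libraries labelled CR40469-KO and at 23.8, 37.7 and 23.4 TPM in those labelled control, with the high values in CR40469-KO replicate 1 and control replicate 2, as for *Rpn1* and *Rpn2*. Its canonical transcript is 6701 nt long. The log2 fold changes were 0.23 for *cnc*, 0.20 for its repressor *Keap1*, 0.07 for *Pngl*, whose mammalian and worm counterparts process the CncC homologue, and -0.20 for the dimer partner *maf-S*.

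Among 9 genes of ubiquitin supply and of the TER94 unfoldase, 0 were called, with a median log2 fold change of 0.18. The polyubiquitin gene *Ubi-p63E* had the largest, 0.33 (95% interval -0.10 to 0.75, limma adjusted p = 0.818), with 396, 317 and 309 TPM in the libraries labelled CR40469-KO and 218, 313 and 288 TPM in those labelled control. Control replicate 2 lay among the CR40469-KO libraries. The COP9 signalosome resembles the lid in its subunits, and of its 9 genes 8 were tested and 0 called, with a median of 0.08, while *CSN1a* was listed at 0 in all libraries. Beside these, 0 of the 87 cytoplasmic ribosomal protein genes tested were called, with a median of -0.02.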

How the data were processed

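Poly-A RNA of wing discs was sequenced in 6 libraries, 3 per label. The authors aligned the reads to dm6 and quantified genes with STAR 2.4.0j and RSEM 1.2.21, per the submitters' processing notes, and deposited TPM per gene with 2 decimals for 16455 genes. TPM keep no depth, and RSEM's division of reads between similar or overlapping genes cannot be followed in them. Symbols and positions came from the Ensembl annotation of dm6 and RefSeq synonyms, with 16401 identifiers matched and 54 without a symbol. limma 3.58.1 in R 4.3.3 (lmFit, eBayes) was run on log2(TPM + 1) with the label as the only term, over the 8051 genes that reached 1 TPM in any library. Fold changes on this scale understate the change of low genes. A gene was called at an adjusted p under 0.05 and a fold change over 1.7. The script was tested on simulated data. Samples were grouped by GEO's labels. The study's supplement calls the 3 libraries of a condition biological replicates, without stating whether their cultures were separate. The p-values measure the spread between these libraries, which may be partly technical. The statistical design of the study, with non-regenerating discs and DESeq2 on counts, was not used here.

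The members, lists and alternatives were chosen with earlier results of these data known. Values in full were given for the proteolytic subunits, for the highest and lowest mean of each ring or subcomplex, for the 3 lowest p and for the 3 largest fold changes. Other genes named with values were chosen after these were seen. Median-ratio scaling, a pseudocount of 0.1, other filters, a mean-variance trend, the replicate number as a block and each library left out were tried. Figures were drawn with matplotlib 3.10.9 and tables handled with pandas 2.3.3.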

Additional observations from a re-analysis of the deposited data

How the results depend on the processing

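No somatic subunit gene was called under any of the 13 alternative fits or without the fold change threshold, and the lowest adjusted p of any was 0.376. Since few of all tested genes were called in these fits, 0 calls among the 32 says little about them. The fit with the replicate block called 0 members and 31 of all tested genes, against 18 without it; same-numbered libraries did not deviate together (r = -0.03, -0.35 and 0.16), so the numbers were not taken as pairs. Over all genes, 23 were called with a pseudocount of 0.1, 3 with at least 1 TPM in every library, 11 with no filter and 6 to 35 with 1 library left out. Median-ratio scaling moved the core median to -0.13, and left 11 of the 32 members positive, against 25 without it; among the 14 genes given in full it reversed *Prosbeta2* (-0.058), *Prosbeta6* (-0.029), *Rpn13* (-0.018) and *Rpn9* (-0.086). With 1 library left out in turn, the core median lay between -0.07 and 0.10, the regulatory median between 0.02 and 0.25, the difference in the core to regulatory ratio between -0.28 and -0.0058, and the members ordered by label in every library between 0 and 18, the last alternative being chosen after seeing the data, as were the summed *Prosalpha1* pair, the length limit and the removal of 2 libraries.

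Leaving out 1 library also changed the sign for 8 of the 14 genes given in full. Their log2 fold changes then ranged from -0.32 to 0.074 for *Prosalpha1*, from -0.18 to 0.10 for *Prosalpha5*, from -0.083 to 0.12 for *Prosbeta1*, from -0.033 to 0.17 for *Prosbeta2*, from -0.12 to 0.12 for *Prosbeta5*, from -0.015 to 0.20 for *Prosbeta6*, from -0.028 to 0.26 for *Rpn13* and from -0.035 to 0.15 for *Rpn9*. The cause was not tested. TPM hold no depth, and counting error was not estimated. The 3 libraries per label limit what could be detected: the intervals of single members reached 0.77.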
